A study of Homo sapiens with 4 samples.

Results

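The PHACTR genes encode phosphatase and actin regulators, and 4 of them (PHACTR4, PHACTR1, PHACTR2 and PHACTR3) are described here in peak lists that mapped the binding of the RNA-binding protein ZFR. They were chosen by gene identifier: every listed peak assigned to ENSG00000204138.8, ENSG00000112137.12, ENSG00000112419.10 or ENSG00000087495.12 was taken. PHACTR4 was picked because its share of the listed peaks was high in both eCLIP libraries over input, so its values in that comparison are a description and carry no test. The other 3 genes are in the set because they belong to the family. Together the 4 genes, of 17764 with a listed peak, held 419 of 595484 peaks.

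Enhanced crosslinking and immunoprecipitation (eCLIP) uses ultraviolet light to join a protein to the RNA it touches, pulls the protein down and sequences the attached RNA fragments. Both groups came from polyclonal Flp-In T-REx-293 cells, a human embryonic kidney line, with FLAG-ZFR integrated at the FRT site and its expression induced by 1 µg/mL doxycycline for 48 to 72 h before crosslinking at 400 mJ/cm2. The eCLIP group had 2 libraries and the size-matched input, the RNA of the same gel region without immunoprecipitation, had 2. The inputs carry the same transgene, so a cell without FLAG-ZFR is not among the groups, and the tagged protein is an added, induced copy. Whether the 2 libraries of each group stem from different cultures is not in the labels. Peak lists do not measure expression, so the identity of the cells was not checked against marker genes.

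PHACTR proteins bind monomeric actin through RPEL motifs and the catalytic subunit of protein phosphatase 1 through their C-terminal end, and actin and the phosphatase compete for them. Through the phosphatase they act on cofilin and other regulators of the cytoskeleton. Mouse Phactr4 is needed for neural tube closure and for the migration of enteric neural crest cells. PHACTR1 and PHACTR3, which is also called scapinin, are best known from brain, and PHACTR1 also from endothelium. ZFR is a zinc finger protein of the DZF family with a part in alternative splicing.

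The lists differed widely in length, also within a group. They held 479308 peaks (eCLIP 1) and 41904 peaks (eCLIP 2), against 63068 (input 1) and 11204 (input 2), so a gene's peaks are given as a share per 10000 peaks of its library. The lists give no sequencing depth. A share moves with how much of a library was called, and fewer transcribing cells, less RNA per cell and less binding cannot be told apart in it. Intervals on shares are Wilson 95% intervals, which cover counting error only. The last number of a peak's name is taken here as its read number, a reading for which the lists hold no key.

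PHACTR4 lay at the high end of the eCLIP to input comparison, for which it was picked. Whether the other family members differ from it in this comparison was not tested. PHACTR4 held 194 peaks in eCLIP 1 and 33 in eCLIP 2, against 4 in input 1 and 1 in input 2. As shares these were 4.05 (3.52 to 4.66) and 7.88 (5.61 to 11.1) per 10000 peaks in eCLIP, against 0.634 (0.247 to 1.63) and 0.893 (0.158 to 5.05) in input. The group means were 5.96 ± 2.71 in eCLIP and 0.763 ± 0.183 in input (SD, n = 2 each). The 2 eCLIP shares exceeded those of both inputs, and the interval of input 2, which rests on 1 peak, reached into the eCLIP range. That order of the 4 libraries was found in 21.1% of the 8914 genes that reached 10 peaks in all, and for PHACTR4 it is what the choice of the gene used.

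**Figure D1:**
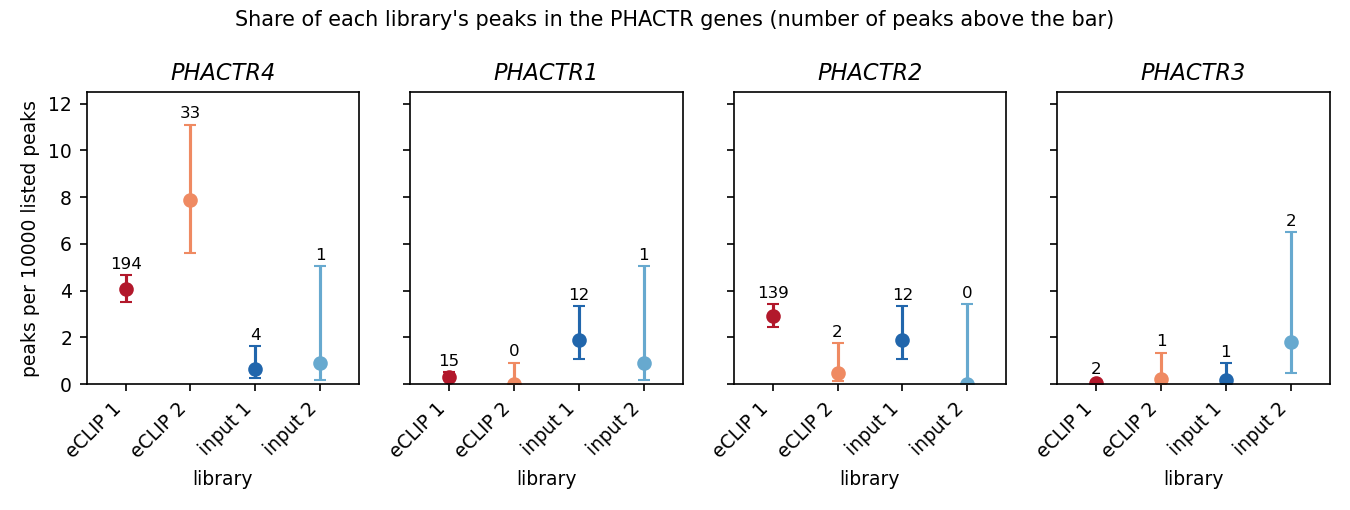
Peaks per 10000 listed peaks (vertical axis) in each of the 4 libraries for the 4 PHACTR genes; points are the measured shares, bars their Wilson 95% intervals and the number above each bar is the count of peaks. PHACTR4 stands at 4.05 and 7.88 in eCLIP against 0.634 and 0.893 in input, while both PHACTR1 shares in eCLIP (0.313 and 0) lie below those in input (1.90 and 0.893).

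On the log2 scale, log2(peaks per 10000 + 0.5), PHACTR4 stood at 2.19 and 3.07 in eCLIP, against 0.18 and 0.48 in input. The difference of the means was 2.30, rank 7 from the top of the 8914 genes, whose median difference was 0.16 and whose 5th and 95th percentiles were -1.05 and 1.25. Counted as reads in peaks, PHACTR4 took 1034 and 135 reads in eCLIP, against 13 and 4 in input, or 3.36 and 5.88 against 0.522 and 0.392 per 10000 reads in peaks. By reads as by peaks, both eCLIP libraries lay above both inputs. These are the reads of the same listed peaks for which PHACTR4 was picked, so the order by reads is no separate evidence.

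In eCLIP 1 a limit on the p-value kept a share of the PHACTR4 peaks near that of all peaks. In eCLIP 2 the kept share was lower but rested on 4 peaks. Limited to peaks with a deposited p-value under 0.001, PHACTR4 kept 42 and 4 peaks in eCLIP, against 0 and 0 in input. The kept share was 21.6% in eCLIP 1 and 12.1% in eCLIP 2, against 23.3% and 21.9% of all peaks. Of all input peaks 12.6% and 28.7% were kept, so 0 of the 4 and 0 of the 1 PHACTR4 input peaks are too few to compare. Every list was also limited to its 11204 peaks of lowest p-value, as many as the shortest list holds. PHACTR4 then kept 0 of 194 and 7 of 33 peaks in eCLIP, against 0 of 4 and 1 of 1 in input. With these counts eCLIP 1 stood no higher than input 1. Of the peaks of all genes, 11204 of 479308 were kept in eCLIP 1 and 11204 of 41904 in eCLIP 2. In input 1 these were 11204 of 63068, and in input 2 all were kept. That limit fell at a p-value of 5.67e-10 in eCLIP 1 and 2.01e-03 in eCLIP 2, and the lowest p-value of a PHACTR4 peak in eCLIP 1 was 1.49e-07. The lists of equal length therefore hold very different ranges of peak strength.

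The genes were tested together with limma on these log2 shares, with Benjamini-Hochberg adjustment over all 8914. At an adjusted p under 0.05 the share of genes higher in eCLIP was 0% and the share lower was 0%, and no gene had an adjusted p below 0.995. Before adjustment, 112 higher and 62 lower genes had a limma p under 0.05. Together they were below the share of 0.05 that this limit gives where no gene differs. Of the 4 PHACTR genes, PHACTR3 fell under the minimum with 6 peaks, PHACTR4 is described without a test, and PHACTR1 and PHACTR2 did not pass it.

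**Figure D2:**
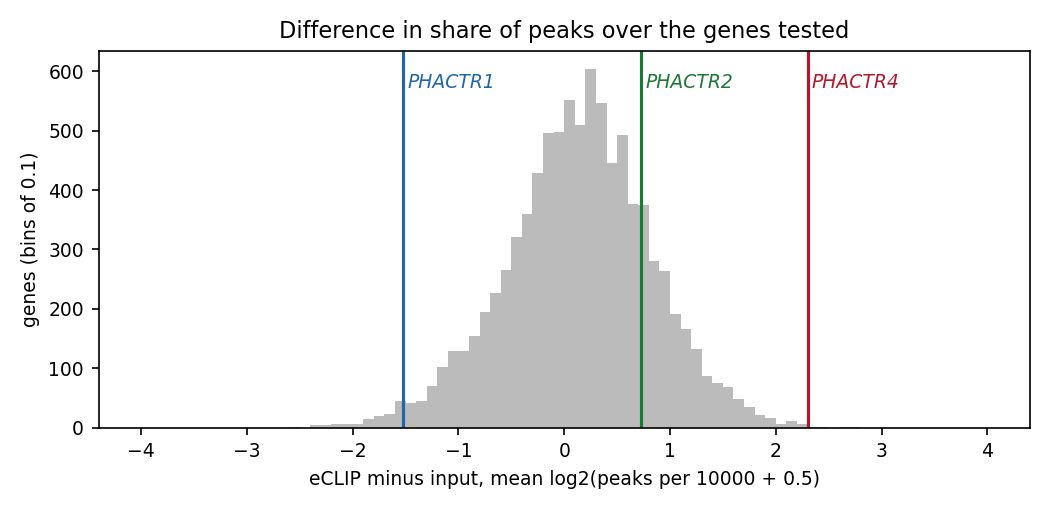
Number of genes (vertical axis) by the difference in mean log2(peaks per 10000 + 0.5), eCLIP minus input (horizontal axis), for the 8914 genes tested; vertical lines mark the PHACTR genes among them. PHACTR4 at 2.30 lies beyond the 95th percentile of 1.25, PHACTR2 at 0.73 within the bulk, and PHACTR1 at -1.52 below the 5th percentile of -1.05.

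Peaks of PHACTR4 were spread along their span, taken here from the first to the last listed peak and not from gene models. On chromosome 1 (hg19), plus strand, they ran from 28696543 to 28826707, a span of 130 kb, and in eCLIP 1 every full 10-kb window of that span held a peak, from 2 to 27 per window with a median of 14. In eCLIP 2, 11 of the 13 full windows held a peak. Over these 13 windows the peak counts of the 2 eCLIP libraries correlated at a Pearson r of 0.688 and a Spearman rho of 0.777, given as a description, since both libraries read the same transcript. Exons, introns and the sequence under the peaks are left out, since they need an hg19 genome and annotation, which were not used here.

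The middle of the span held the largest share of the peaks. With the span divided into 3 equal stretches, 35.1% of the 194 peaks of eCLIP 1 lay in the first, 45.9% in the middle and 19.1% in the last. Of the 33 peaks of eCLIP 2 these shares were 30.3%, 60.6% and 9.09%. In both libraries the last stretch was the poorest, and the window from 110 to 120 kb held 2 peaks in eCLIP 1 and 0 in eCLIP 2, against 0 in input 1 and 1 in input 2. The next window, from 120 to 130 kb, held 13 peaks in eCLIP 1 and 1 in eCLIP 2, against 1 in input 1 and 0 in input 2. The 5 input peaks of PHACTR4 were scattered, with those of input 1 at 4.71, 71.0, 77.6 and 121 kb from the first listed peak and that of input 2 at 112 kb.

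**Figure D3:**
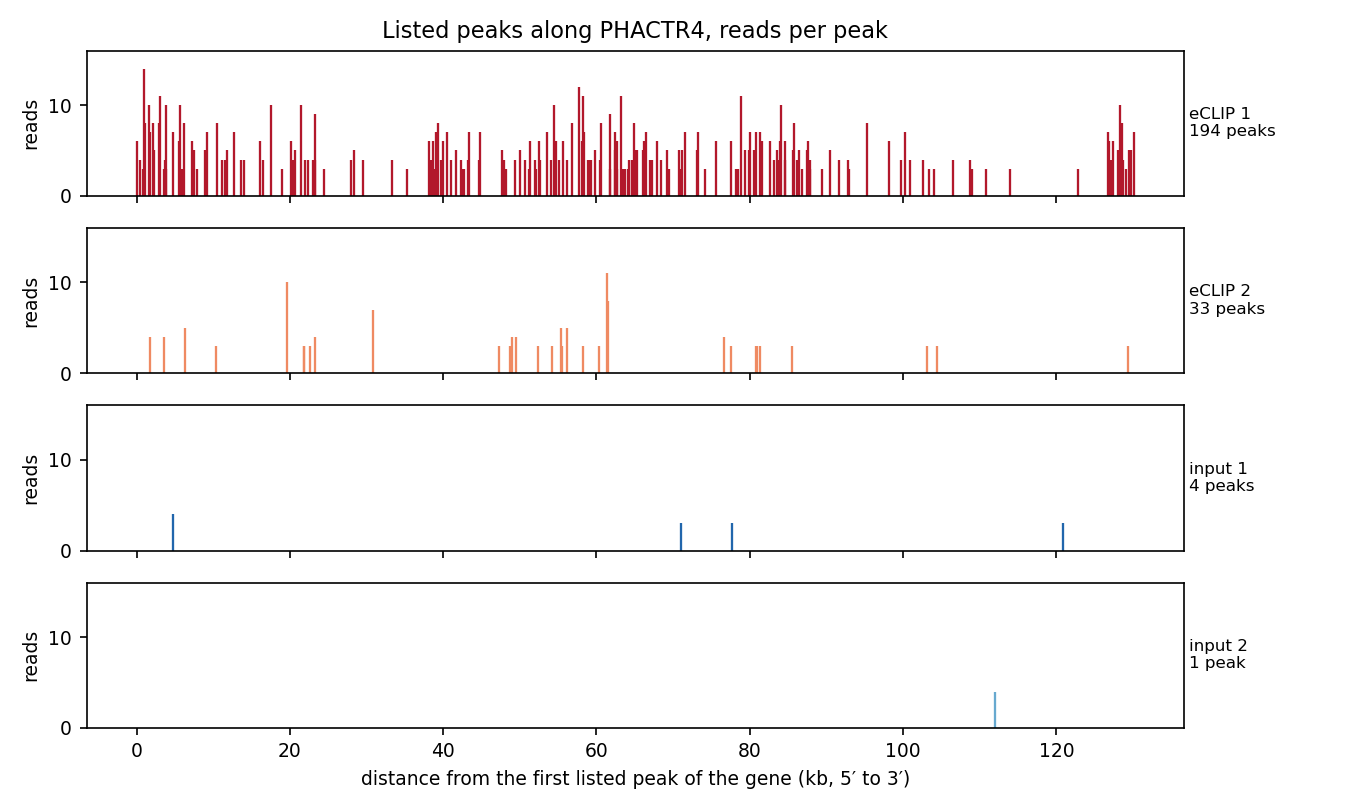
Every listed PHACTR4 peak by its distance from the first listed peak (horizontal axis, kb, 5′ to 3′) and its reads (vertical axis), with 1 panel per library. The 194 peaks of eCLIP 1 and 33 of eCLIP 2 run along the span and are sparse from 90 to 120 kb, against 4 and 1 peaks in the inputs.

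Per kb of span, PHACTR4 carried 1.49 peaks in eCLIP 1 and 0.254 in eCLIP 2, against 0.0307 in input 1 and 0.00768 in input 2. Of the 8619 genes that had 10 or more peaks on a stretch of 5 kb or more, 82.6% had a lower density in eCLIP 1 and 87.4% in eCLIP 2, against 21.8% in input 1 and 63.1% in input 2, where the median gene had no peak. PHACTR4 ranked high in density in eCLIP but was not among the densest genes. Density uses the same peak counts for which PHACTR4 was picked, so its high rank in eCLIP restates that choice. The peaks covered 4.64% and 0.724% of the span in eCLIP, against 0.0922% and 0.0346% in input.

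The peaks of PHACTR4 were close in width to those of other genes. In eCLIP 1 their width was 30 bases at the median, against 28 over the whole list, and their reads ran from 3 to 14 with a median of 5, against a median of 4 reads over the whole list. Only 18.0% of them stood at the minimum of 3 reads, against 32.0% of all peaks of that library, but 7.22% reached 10 reads, against 10.4% of all. In eCLIP 2 the median was 3 reads, from 3 to 11, and 60.6% stood at 3 reads, against 50.1% of all peaks. The number within a peak's name is taken here as a running peak number, for which the lists hold no key either. On that reading at least 253 PHACTR4 peaks were numbered in eCLIP 1, of which 59 are not in the list. In eCLIP 2 at least 41 were numbered, of which 8 are not in the list. The same share over all genes was not computed.

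The strongest PHACTR4 peaks of the 2 eCLIP libraries lay at different positions. In eCLIP 1 the lowest p-value belonged to 28754279 to 28754319, with 12 reads, and the most reads, 14, to a peak near the 5′ end at 28697500 to 28697584, whose deposited p-value was 4.97e-07. Neither overlapped a peak of eCLIP 2, whose nearest peaks lay 469 and 710 bases away. In eCLIP 2 the strongest peak ran from 28757968 to 28758010, with 11 reads and a deposited p-value of 9.40e-09, and another of 8 reads followed at 28758026 to 28758053. The second strongest lay at 28716228 to 28716279, with 10 reads and a deposited p-value of 1.35e-07. The 4 PHACTR4 peaks of eCLIP 2 with 7 or more reads overlapped no peak of eCLIP 1, the nearest of which lay 197 to 1217 bases away. That 0 of 4 has a Wilson interval of 0 to 49.0%, which includes the 45.1% of such peaks over all genes.

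In PHACTR4, 7 peaks were found in both eCLIP libraries, on the same strand with at least 1 shared base, and in neither input. They were all the peaks that PHACTR4 shares between the eCLIP libraries, or 21.2% (10.7 to 37.8) of its eCLIP 2 peaks. Over all genes 33.1% of the eCLIP 2 peaks overlapped eCLIP 1, a value inside that interval. Of the eCLIP 1 peaks of PHACTR4 the 7 were 3.61% (1.76 to 7.26), against 2.96% over all genes. Both values over all genes count overlaps whether or not an input peak was there. PHACTR4 was chosen for a high share over input and has few input peaks, so absence from input adds little. The 7 peaks shared 7 to 33 bases and held 4 to 11 reads in eCLIP 1 and 3 to 5 in eCLIP 2. The first, at 28698294 to 28698329, began at the same base in both libraries and held 7 reads in eCLIP 1 and 4 in eCLIP 2. The one with most reads in eCLIP 1, 28754761 to 28754811, held 11 there and 3 in eCLIP 2.

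A group of 3 of the 7 lay close together downstream of the middle of the span. The first of them ended 14 bases before a peak of input 1 at 28774187 to 28774220. They ran from 28774122 to 28774173, from 28777331 to 28777378 and from 28777918 to 28777949 in eCLIP 1, with 6, 7 and 7 reads, and held 3 reads each in eCLIP 2. The other 2 shared peaks began at 28719810 and 28752663 and held 4 reads each in eCLIP 1, against 4 and 5 reads in eCLIP 2. At a p-value under 0.001 none of the 7 remained shared.

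No eCLIP peak of PHACTR4 overlapped an input peak. This was 0 of 194 peaks in eCLIP 1 for either input, which allows a share of up to 1.94%. In eCLIP 2 it was 0 of 33, which allows up to 10.4%. PHACTR4 was chosen for a high share in eCLIP over input and holds few input peaks, so few overlaps were possible. Over all genes 1.53% of the eCLIP 1 peaks overlapped input 1 and 0.643% overlapped input 2, and of the eCLIP 2 peaks 3.55% and 5.21% did, so at this number of peaks PHACTR4 could not be told from the rest. Of the 4 peaks of input 1, 3 lay beside a peak of eCLIP 1, at 12, 14 and 25 bases, and the 1 peak of input 2 lay 1176 bases from the nearest. A gene with the identifier ENSG00000229820.2 has 2 listed peaks on the same strand that overlap eCLIP 1 peaks of PHACTR4, so 192 of the 194 belong to PHACTR4 alone.

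PHACTR2 is the family member with the next most peaks, and its libraries did not separate by group. It held 139 peaks in eCLIP 1 and 2 in eCLIP 2, against 12 in input 1 and 0 in input 2. The shares were 2.90 (2.46 to 3.42) and 0.477 (0.131 to 1.74) per 10000 in eCLIP. In input they were 1.90 (1.09 to 3.33) in input 1 and 0 of 11204 in input 2, which allows up to 3.43. The log2 difference was 0.73 (SE 0.90), with a limma adjusted p of 0.995, and 81.4% of the genes tested lay below it. Its direction turned when eCLIP 1 or input 2 was left out, at -0.17 and -0.40. The group means were 1.69 ± 1.71 in eCLIP and 0.951 ± 1.35 in input (SD, n = 2 each), so the spread within a group was as large as the mean.

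PHACTR2 peaks ran along chromosome 6, plus strand, from 143858321 to 144151061, a span of 293 kb. In eCLIP 1 they came to 0.475 per kb, and 51.1% lay in the first of 3 equal stretches, 19.4% in the middle and 29.5% in the last. They were weak: 62.6% stood at 3 reads, 0 reached 10 reads and the highest had 8, at 143892558 to 143892595, 143949338 to 143949375 and 144145301 to 144145364. The 2 peaks of eCLIP 2 had 3 reads each and overlapped no peak of eCLIP 1, a number too small to set against the 28.0% of all such 3-read peaks. Of the 139 peaks of eCLIP 1, 0.719% (0.127 to 3.96), or 1 peak, overlapped input 1, against 1.53% over all genes. At the 3′ end 18 of the 139 peaks were also listed for ENSG00000257065.1 on the same strand.

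Within a library the peaks of PHACTR4 and PHACTR2 can be set against each other without the total of the list, though their ratio still moves with how many weak peaks a list holds. PHACTR4 held 58.3% (52.9 to 63.4) of the peaks of the pair in eCLIP 1 and 94.3% (81.4 to 98.4) in eCLIP 2, against 25.0% (10.2 to 49.5) in input 1 and 1 of 1 in input 2. At a p-value under 0.001, PHACTR4 and PHACTR2 held 42 and 10 peaks in eCLIP 1 and 4 and 0 in eCLIP 2, against 0 and 1 in input 1 and none of either in input 2. Since PHACTR4 was picked for its share, these values describe the pair and test nothing.

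PHACTR1 lay at the opposite end of the comparison from PHACTR4. It held 15 peaks in eCLIP 1 and 0 in eCLIP 2, against 12 in input 1 and 1 in input 2. The shares were 0.313 (0.190 to 0.516) per 10000 in eCLIP 1 and 0 of 41904 in eCLIP 2, which allows up to 0.917. In input they were 1.90 (1.09 to 3.33) in input 1 and 0.893 (0.158 to 5.05) in input 2. The limit for eCLIP 2 thus lay above the share of input 2. Both eCLIP shares lay below both input shares, an order found in 10.2% of the genes tested. The log2 difference was -1.52 (SE 0.83), rank 121 from the bottom, and it did not pass the test (limma, adjusted p = 0.995). With touching peaks merged, input 1 held 8 PHACTR1 peaks in place of 12, and the shares were 0.315 and 0 in eCLIP, against 1.72 and 0.916 in input.

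**Figure D4:**
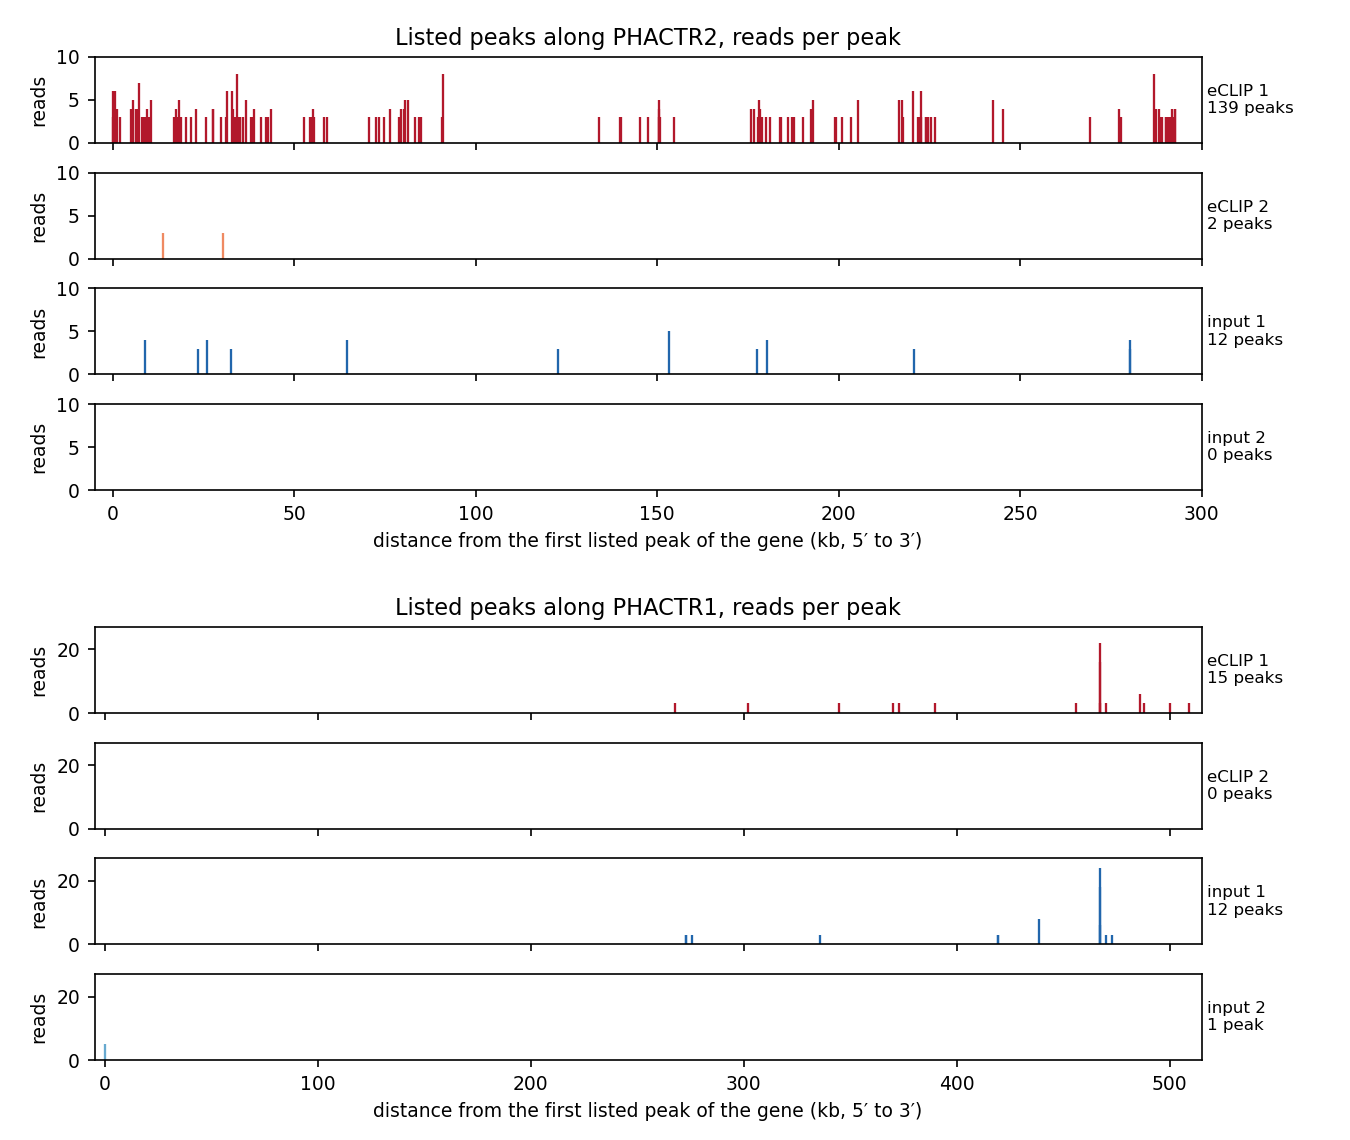
Listed peaks of PHACTR2 (upper 4 panels) and PHACTR1 (lower 4 panels) by distance from the gene's first listed peak (horizontal axis, kb, 5′ to 3′) and reads (vertical axis; the scale differs between the genes), 1 panel per library. PHACTR2 has 139 and 2 peaks in eCLIP against 12 and 0 in input, none above 8 reads, and PHACTR1 has 1 tall site in eCLIP 1 and input 1.

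Most PHACTR1 reads came from 1 site that eCLIP 1 shared with input 1. The site covers 165 bases of chromosome 6, plus strand, from 13214288 to 13214452. It held 3 peaks of 16, 22 and 3 reads in eCLIP 1, against 3 peaks of 18, 24 and 6 reads in input 1, which touched each other. These were 51.2% of the reads of PHACTR1 in eCLIP 1 and 60.0% in input 1, or 0.133 and 1.93 per 10000 reads in peaks. The strongest peaks there, at 13214379 to 13214429 in eCLIP 1 and 13214364 to 13214435 in input 1, had p-values of 1.92e-22 and 3.69e-26, lower than any PHACTR4 peak. A gene with the identifier ENSG00000206702.1 was listed inside the site at 13214384 to 13214416 in eCLIP 1 and at 13214389 to 13214417 in input 1, so the reads of either library cannot be assigned to PHACTR1 alone. Per kb of its span of 509 kb, PHACTR1 carried 0.0294 peaks in eCLIP 1 and 0.0236 in input 1. Outside the site PHACTR1 held 12 peaks in eCLIP 1 against 9 in input 1, or 0.250 against 1.43 per 10000. The 9 include touching peaks that are counted singly. Over all genes, merging overlapping and touching peaks took input 1 from 63068 to 46390 peaks and eCLIP 1 from 479308 to 476131.

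PHACTR3 had the fewest peaks, with 2 in eCLIP 1 and 1 in eCLIP 2, against 1 in input 1 and 2 in input 2. It was the 1 family member with a position listed in all 4 libraries, between 58404624 and 58404642 on the plus strand of chromosome 20. That site held 4 reads in eCLIP 1 and 13 in eCLIP 2, against 5 in input 1 and 3 in input 2, or 0.0130 and 0.566 against 0.201 and 0.294 per 10000 reads in peaks. The input values lay between the eCLIP values. The peak of 13 reads had a p-value of 4.75e-12, the lowest of any PHACTR peak in eCLIP 2. Outside the site PHACTR3 held 1 peak in eCLIP 1, of 5 reads at 58411909 to 58411922, and 1 in input 2, of 3 reads at 58381223 to 58381238.

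**Figure D5:**
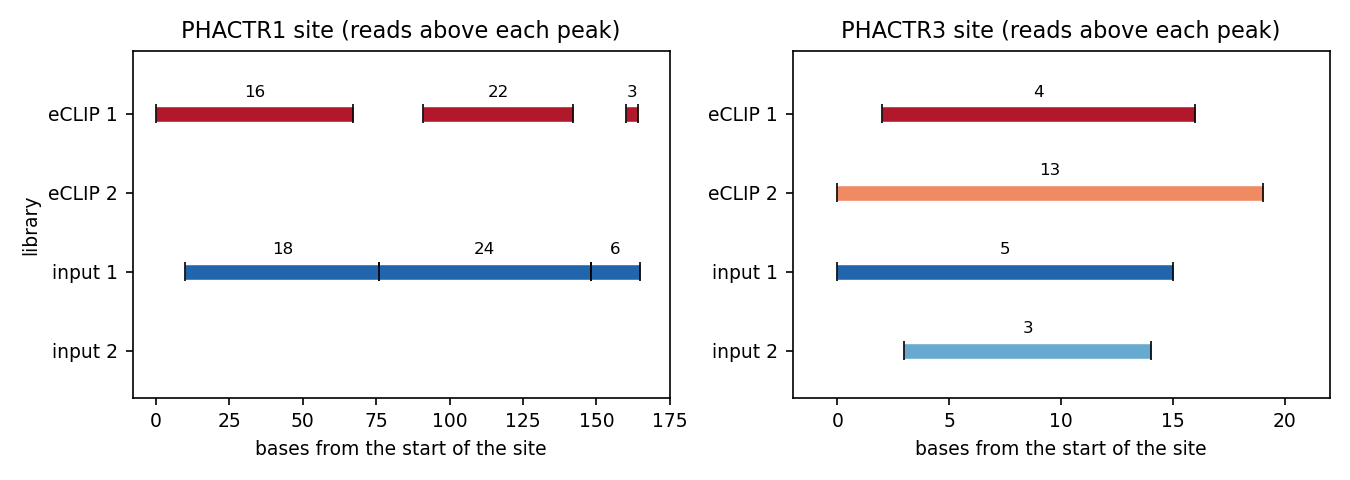
Peaks at the PHACTR1 site (left) and the PHACTR3 site (right), drawn as bars from their first to their last base (horizontal axis, bases from the start of the site) for each library (vertical axis), with the reads of each peak above it. The PHACTR1 site holds 41 reads in eCLIP 1 and 48 in input 1 and none in the libraries numbered 2, and the PHACTR3 site holds 4 and 13 reads in eCLIP against 5 and 3 in input.

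The genes whose 4 log2 shares lay nearest to those of PHACTR4, by Euclidean distance over the 4 libraries, were ENSG00000241484.5 and ENSG00000248405.5, both at a distance of 0.678. They overlap each other on chromosome 22, with peaks from 45098935 to 45258125 and to 45258139, and so count as 1 locus. ENSG00000241484.5 held 194 and 28 peaks in eCLIP, against 8 and 1 in input. The peak lists pair no gene names with identifiers, so the actin, cofilin and phosphatase genes that work with the PHACTR proteins were not analysed here.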

How the data were processed

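Peaks were listed for 2 eCLIP libraries and 2 size-matched inputs, grouped and numbered by their titles. Per the submitters' processing notes, reads went through cutadapt, STAR and SAMtools against hg19. For the versions, the peak caller and the gene models used, the labels and lists name nothing. The authors deposited a separate list for each library, so peaks were not called on pooled libraries. Each line gives an interval, a strand, a gene identifier with a peak number and a read number, a p-value, a score and a position. The deposited p-value lies under 0.05 for every peak. The deposited score is a whole-number form of that p-value and was not used. Positions are counted from 1.

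Shares were log2-transformed with a pseudocount of 0.5 and fitted with limma 3.58.1 in R 4.3.3 (lmFit, eBayes with trend, two-sided, group as the 1 term) on the 8914 genes that reached 10 peaks in the 4 libraries together. The fit was also run on simulated lists that carry counting error only, so that run says nothing of the spread between the real libraries. Differences on this scale understate those of genes with few peaks. Peak numbers are not read counts of a library, so no count model was used. With 2 libraries a group, the smallest two-sided p of an exact permutation test is 0.33, so none was run. All p-values of the fit reflect the spread of these 4 libraries alone, and that spread may be technical. The reference table of 59792 genes carries 0 Ensembl identifiers and follows another build, so member names come from the list of 4 identifiers. Genes named are those 4 and, of the 5 nearest to PHACTR4, at most 2 identifiers. Identifiers that share an interval with a member were named after their values were seen. Members and lists were chosen with earlier results of these data known. Overlaps needed 1 base on the same strand. Alternatives were merged peaks, a p-value limit of 0.001, lists of equal length, a pseudocount of 1, no minimum of peaks, shares of reads, an overlap of 50% of the shorter peak, each library left out and the replicate number as a block. Leaving out peaks listed for several genes was chosen after seeing the data.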

Additional observations from a re-analysis of the deposited data

How the results depend on the processing

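The log2 difference of PHACTR4, 2.30, stayed positive under all 12 alternatives. With 1 library left out it ranged from 1.86 to 2.74. PHACTR4 was chosen for this difference, so leaving out 1 library could not turn it negative. The setting without a minimum and the replicate block leave its value unchanged by construction. The difference moved by more than its spread within groups (0.46) under 2 alternatives. It was 3.19 at a p-value under 0.001, where PHACTR4 held 0 peaks in both inputs. In lists of equal length it was 1.14, and PHACTR4 held 0 peaks in both libraries numbered 1. PHACTR1 stayed negative under the 10 alternatives that could be fitted, from -1.91 to -1.03, and under none did it pass the test; with 1 library left out it ranged from -1.91 to -1.13. PHACTR2, 0.73, turned to -0.17 at a p-value under 0.001 and ranged from -0.40 to 1.87 with 1 library left out; the cause was not tested. PHACTR1 at a p-value under 0.001, and all 4 genes in lists of equal length, fell under the minimum of 10 peaks, so the 1.14 of PHACTR4 is a difference of means outside the fitted genes. Without that minimum PHACTR3 had a difference of -0.96 (SE 0.87, limma adjusted p = 0.809). The count of shared PHACTR peaks, 7, and the 21.2% of PHACTR4 peaks of eCLIP 2 found in eCLIP 1 both became 0 at a p-value under 0.001, where 4 such peaks were left, and did not move under the other 2 alternatives. The calls over all genes, 0 higher and 0 lower, ranged from 0 to 695 higher and from 0 to 5 lower with 1 library left out, the 695 being without eCLIP 2 and the 5 without input 1. Such a fit takes the spread of the group left with 1 library from the other group. With the replicate block limma called 3 genes higher and 1 lower at an adjusted p under 0.05, PHACTR1 and PHACTR2 not among them. Same-numbered libraries deviated together across genes (r = 0.397). Both libraries numbered 1 also held the longer list of their group, and the part of list length in this r was not tested. With 2 pairs and no label for a shared batch, the numbers are not taken to pair the libraries. PHACTR values rest on few reads per peak, and input 2, with 11204 peaks, limits every share.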
